A study of Mus musculus with 2 samples.

Results

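The let-7 family of microRNA (miRNA) genes was described in the stomach of mouse embryos of 16.5 days, from sequencing of short RNA. The family was taken as every gene of the count tables whose symbol begins with Mirlet7, plus Mir98, which gave 10 genes of 1973. These were Mirlet7a-1, Mirlet7a-2, Mirlet7b, Mirlet7c-1, Mirlet7c-2, Mirlet7d, Mirlet7f-2, Mirlet7g, Mirlet7i and Mir98. A further 2 let-7 genes, Mirlet7e and Mirlet7f-1, have no line of their own in the tables, and their reads were taken from the other strand of Gm25927 and Gm24111. The series holds 1 group of 2 libraries, each from stomachs pooled from embryos of the strain B6NCrl, male and female together and labelled healthy, with no treatment named. Replicate 2 pooled 41 embryos, and the labels give no number for replicate 1. Both pools carry the same donor label, so the spread between them may not be that between unrelated animals. No other age, tissue or treatment was present, and the values below describe genes within this tissue and the difference between the libraries.

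The let-7 miRNAs were first found in Caenorhabditis elegans, where let-7 sets the timing of larval development. In mammals the mature miRNAs appear as embryonic cells differentiate, and they repress targets such as Lin28a, Lin28b, Hmga2 and Igf2bp1. The RNA-binding proteins Lin28a and Lin28b in turn bind the loop of let-7 precursors and block their processing. A hairpin precursor yields a mature strand from its 5p arm and another from its 3p arm. Targets are chosen mainly by the seed, bases 2 to 8 of the mature strand.

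The 5p sequences are shown first because they define the family and because several hairpins hold the same one. The sequences are those of RefSeq for the build GRCm38.p6, all 12 genes matched, and capitals mark the seed.
let-7g-5p: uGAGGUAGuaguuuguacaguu
let-7i-5p: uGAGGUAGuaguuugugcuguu
let-7d-5p: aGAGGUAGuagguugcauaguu
miR-98-5p: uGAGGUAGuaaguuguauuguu
let-7e-5p: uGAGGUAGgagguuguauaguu
let-7b-5p: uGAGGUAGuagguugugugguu
let-7f-5p: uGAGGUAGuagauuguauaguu
let-7a-5p: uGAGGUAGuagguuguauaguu
let-7c-5p: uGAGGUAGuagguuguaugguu
The 12 hairpins carry 9 distinct 5p sequences, each 22 bases long, and all 9 share the seed. Positions were counted from 1 at the 5′ end of let-7a-5p. Against it, let-7c-5p differed by A19G, let-7f-5p by G12A and let-7e-5p by U9G. The sequence let-7b-5p differed by A17G and A19G, let-7d-5p by U1A and U16C, miR-98-5p by G11A and A19U, and let-7g-5p by G12U and U18C. The most distant was let-7i-5p, with the 4 changes G12U, A17G, U18C and A19U. Apart from the first base of let-7d-5p, the differences lay from position 9 to position 19.

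Reads counted on the sense strand of the 10 genes came to 905353 in replicate 1 and 1140123 in replicate 2. This was 11.7% of all sense-assigned reads in replicate 1 (95% interval by the exact method of Clopper and Pearson, 11.683% to 11.728%). In replicate 2 it was 14.3% (14.256% to 14.305%). The mean was 12.99% ± 1.82 (SD, n = 2). The intervals cover counting error only, and the gap between the libraries was far wider than either of them. In bulk tissue, fewer cells of a type and less RNA per cell cannot be told apart. Each of the 10 genes reached 100 counts-per-million (CPM, of sense-assigned reads) in both libraries, a level met by 186 of the 1973 genes. The family spread widely over the profile, with 2 genes among the 10 most abundant, 3 among the first 25 and 6 among the first 100.

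**Figure D1:**
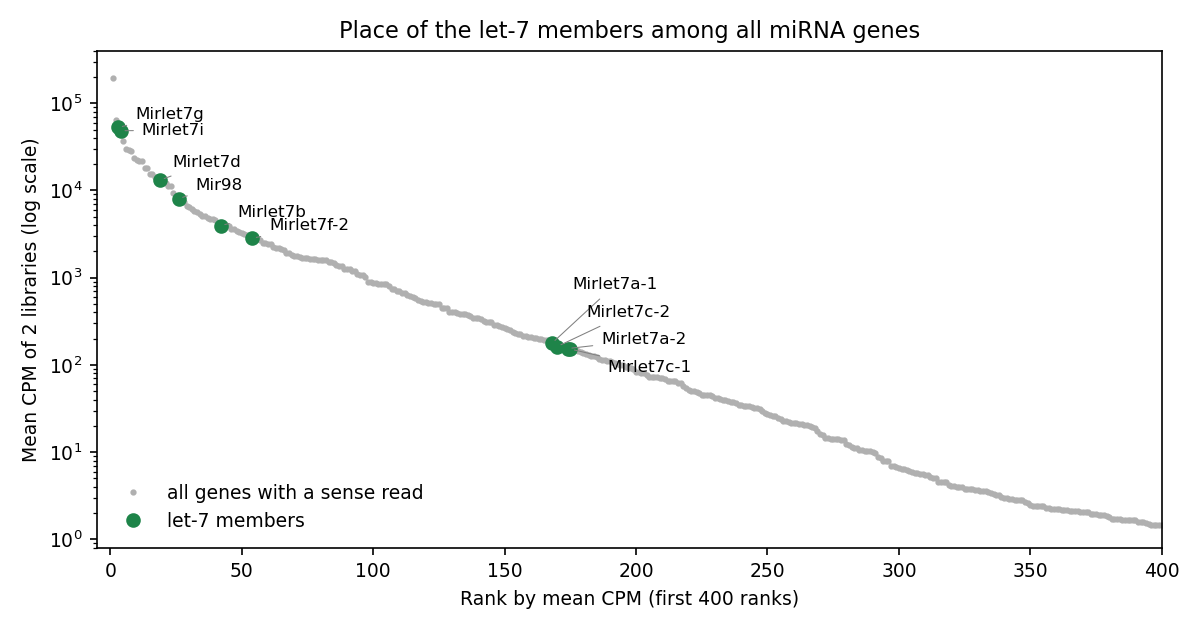
Mean CPM of 2 libraries (log scale) against rank for the 400 most abundant genes, with the 10 let-7 genes in green. Mirlet7g and Mirlet7i stand at ranks 3 and 4, and 4 genes lie together between ranks 168 and 175.

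Mirlet7g and Mirlet7i held most of the family's counted reads. Reads placed at several positions were taken to be outside these counts. Mirlet7g lies in an intron of Wdr82 at chr9:106178840-106178927, on the plus strand (GRCm38, the assembly that mm10 names). It had 345154 reads in replicate 1 and 486295 in replicate 2, which is 44625 and 60911 CPM. Mirlet7i lies in an exon of the transcribed pseudogene D630033A02Rik at chr10:122985640-122985724, on the minus strand. It had 362777 and 399262 reads in replicates 1 and 2, which is 46903 and 50010 CPM. Mirlet7i was the higher of the pair in replicate 1 and Mirlet7g in replicate 2, so their order was not settled by these libraries. Together they took 78.2% of the family's reads in replicate 1 and 77.7% in replicate 2, although the share of Mirlet7g alone was 38.1% in replicate 1 and 42.7% in replicate 2. Among all genes, Mir99a stood directly above Mirlet7g, at 63059 and 64824 CPM in replicates 1 and 2. Directly below Mirlet7i was Mir335, at 41972 and 31052 CPM, and neither neighbour overlapped the member beside it. When likeness was measured over the 2 libraries as the distance in mean log2(CPM + 1) and log2 ratio, the genes nearest to Mirlet7g were Mirlet7i at 0.37, Mir99a at 0.50 and Mir26b at 0.92.

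The next 4 genes had means between 2826 and 13200.5 CPM. Mirlet7d, in an exon of the long noncoding RNA gene 6720427I07Rik at chr13:48536012-48536114, had 10327 CPM in replicate 1 and 16074 CPM in replicate 2. With a mean of 13200.5 ± 4063 CPM (SD, n = 2), it had the widest spread of the family relative to its mean, 30.8%. Mir98 and Mirlet7f-2 both lie in introns of Huwe1 on chromosome X. Mir98, at chrX:151913214-151913321, had 7754 CPM in replicate 1 and 8394 CPM in replicate 2. Mirlet7b, in an exon of Lncppara at chr15:85707319-85707403, had 4061 CPM in replicate 1 and 3857 CPM in replicate 2. Mirlet7f-2, at chrX:151912346-151912428, had 2796 CPM in replicate 1 and 2855 CPM in replicate 2. From Mirlet7i downward through Mirlet7d, Mir98, Mirlet7b, Mirlet7f-2 and Mirlet7a-1, the library values of neighbours did not overlap.

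Mirlet7a-1, Mirlet7c-2, Mirlet7a-2 and Mirlet7c-1 were far lower. Mirlet7a-1, at chr13:48538179-48538272, had 157 CPM in replicate 1 and 198 CPM in replicate 2. Mirlet7c-2, at chr15:85706603-85706697, had 159 and 167 CPM in replicates 1 and 2. Mirlet7a-2, at chr9:41536716-41536811, had 128 and 180 CPM. Mirlet7c-1, in an intron of Mir99ahg at chr16:77599657-77599750, had 142 and 162 CPM. The ranges of the 4 genes overlapped one another. Within a library, Mirlet7a-1 was above Mirlet7a-2 and Mirlet7c-1 in both libraries, and Mirlet7c-2 above Mirlet7c-1, while the other 3 of the 6 pairs changed order between libraries. The lowest value of Mirlet7f-2, the gene above them, was many times their highest. Together they held 0.501% of the family's reads in replicate 1 and 0.495% in replicate 2.

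Of the genes without a line of their own, Mirlet7e lay in the middle of this range and Mirlet7f-1 at its low end. Mirlet7e, in an intron of Spaca6 at chr17:17830352-17830444, had 50847 reads in replicate 1 and 42668 in replicate 2, opposite to Gm25927, which had no read on its own strand. Its level was 5959 ± 869 CPM (SD, n = 2), between Mir98 and Mirlet7b, and it would rank 32 among all genes. Mirlet7f-1, in an exon of 6720427I07Rik at chr13:48537829-48537917, had 1250 reads in replicate 1 and 1154 in replicate 2, opposite to Gm24111. Its 153 ± 12.1 CPM placed it beside the 4 lowest members. With these genes counted, the family held 12.3% of the reads in replicate 1 and 14.7% in replicate 2.

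**Figure D2:**
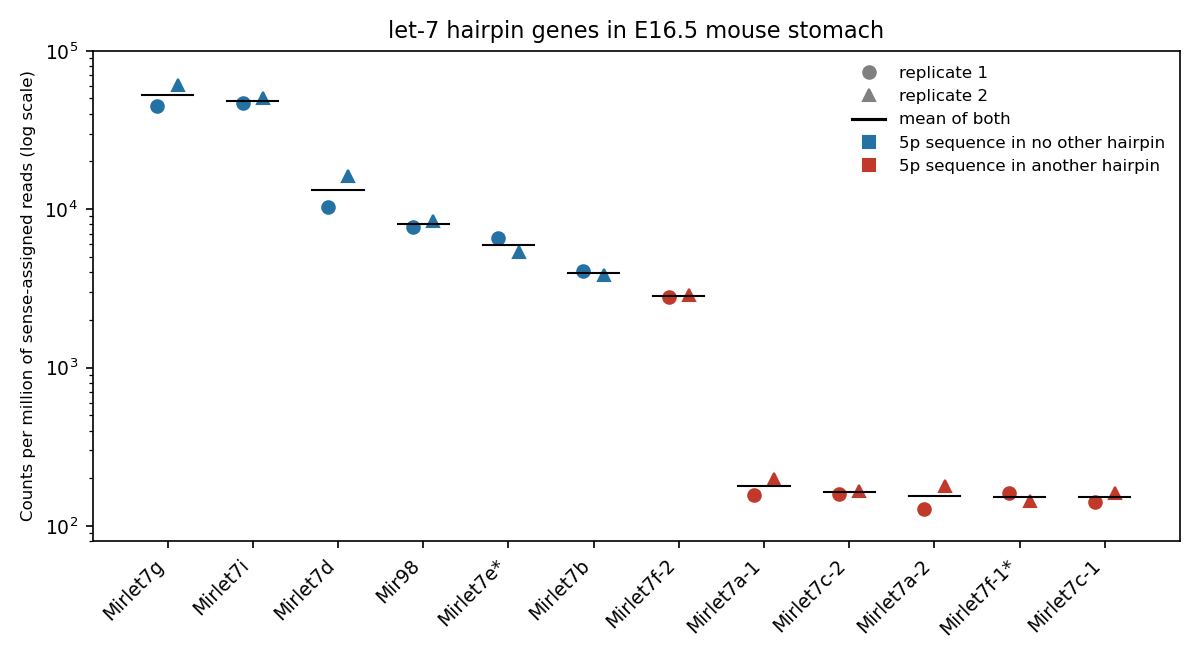
CPM (log scale) of the 12 let-7 hairpin genes in replicate 1 (circles) and replicate 2 (triangles), with bars at the mean; an asterisk marks the 2 genes read from the other strand of another gene. Genes whose 5p sequence is in no other hairpin (blue) lie at a mean of 3959 CPM or more, and those whose 5p sequence is in another hairpin (red) at 2826 CPM or less.

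Levels also split by whether the 5p sequence belonged to a single hairpin. Among the 1005 mouse hairpins of RefSeq, 6 of the 12 let-7 hairpins have a 5p sequence found in no other hairpin, namely Mirlet7g, Mirlet7i, Mirlet7d, Mir98, Mirlet7e and Mirlet7b. Their means ran from 3959 to 52768 CPM. The other 6 share theirs in the pairs Mirlet7a-1 with Mirlet7a-2, Mirlet7c-1 with Mirlet7c-2, and Mirlet7f-1 with Mirlet7f-2, and their means ran from 152 to 2826 CPM. The deposited tables list reads placed at several positions apart from the genes, and from this the gene counts were taken to leave them out. They made up 25.1% of the sequenced reads of replicate 1 and 25.2% of those of replicate 2. How many of them were let-7 reads was not tested. The values of the paired hairpins therefore do not show how much let-7a, let-7c or let-7f the tissue held. The family share, the ranks and the part held by Mirlet7g and Mirlet7i are likewise of counted reads only.

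The hairpins of the let-7f and let-7a pairs are given because the counts within the first pair differ far more than those within the second. Capitals mark the unbroken stretch around the 5p sequence that the hairpins of a pair have in common.
Mirlet7f-1: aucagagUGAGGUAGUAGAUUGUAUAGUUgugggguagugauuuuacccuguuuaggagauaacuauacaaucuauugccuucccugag
Mirlet7f-2: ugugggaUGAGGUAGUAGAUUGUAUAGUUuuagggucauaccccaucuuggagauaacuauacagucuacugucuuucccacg
Mirlet7a-1: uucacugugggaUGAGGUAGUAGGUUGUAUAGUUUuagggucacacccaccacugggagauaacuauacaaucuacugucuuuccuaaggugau
Mirlet7a-2: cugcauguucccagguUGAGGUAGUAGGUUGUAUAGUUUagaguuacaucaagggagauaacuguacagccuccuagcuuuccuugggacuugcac
The common stretch was 22 bases in the let-7f pair and ended with the mature sequence. In the let-7a pair it was 23 bases, and so it was in the let-7c pair, since both hairpins of each pair carry the same base after the mature sequence. Mirlet7f-2 had 17.3 times the reads of Mirlet7f-1 in replicate 1 and 19.8 times in replicate 2. Mirlet7a-1 had 1.23 times the reads of Mirlet7a-2 in replicate 1 and 1.10 times in replicate 2, and Mirlet7c-2 had 1.12 times those of Mirlet7c-1 in replicate 1 and 1.03 times in replicate 2. The tables do not give read lengths.

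The 3p arms were less alike than the 5p arms. Their 12 sequences carry 8 distinct seeds, and the seed UAUACAA is common to Mirlet7a-1, Mirlet7b, Mirlet7c-2, Mir98 and Mirlet7f-1. The 3p sequences of Mirlet7a-1 and Mirlet7c-2 are identical, and no other let-7 hairpin has a 3p sequence found elsewhere among the hairpins.
let-7a-1-3p and let-7c-2-3p: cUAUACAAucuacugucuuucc
In Mirlet7a-1 and Mirlet7c-2 the annotated sequence of either arm is thus present in another hairpin, yet they had 1218 and 1226 reads in replicate 1 and 1577 and 1331 in replicate 2. The counts are for whole hairpins and do not separate the arms.

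Lin28 proteins are known to bind the letters GGAG in the loop of let-7 precursors. These letters were searched between the arms, on the strand of the hairpin only. They were present in 7 of the 10 members, and in 9 of 12 hairpins with Mirlet7e and Mirlet7f-1. Mirlet7b, Mirlet7c-2 and Mir98 did not hold them in this window. Of the 644 mouse hairpins with both arms annotated, 8.07% hold GGAG between the arms, but their stretch between the arms is shorter, with a median of 16 bases against 30.5 in let-7. The 9 hairpins with the letters ranged from 152 to 52768 CPM, and those without stood at 3959, 163 and 8074 CPM, inside that range.

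Most let-7 hairpins lie close to another miRNA hairpin, from which 1 primary transcript can yield several miRNAs. Within 10 kb on the same strand, 6 clusters held a let-7 gene, and Mirlet7g and Mirlet7i had no such neighbour. On chromosome 13, Mirlet7a-1, Mirlet7f-1 and Mirlet7d lie within 2158 bases (start to start in the direction of transcription). There Mirlet7d had 65.6 times the reads of Mirlet7a-1 in replicate 1 and 81.4 times in replicate 2. On chromosome 15, Mirlet7b lies 716 bases after Mirlet7c-2 and had 25.6 times its reads in replicate 1 and 23.1 times in replicate 2. The chromosome X pair was closer in level, with 2.77 times as many reads for Mir98 as for Mirlet7f-2 in replicate 1 and 2.94 times in replicate 2. These ratios kept their direction in both libraries, and each compares a hairpin that has a 5p sequence of its own with hairpins that share theirs.

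The other clusters join let-7 to the miR-99, miR-100 and miR-125 genes, an ancient arrangement of miRNA genes. On chromosome 16, Mirlet7c-1 lies 721 bases after Mir99a, which at 487732 and 517538 reads in replicates 1 and 2 had 445 and 400 times as many. On chromosome 9, Mirlet7a-2 lies 5291 bases after Mir100, which had 44.7 times its reads in replicate 1 and 32.9 times in replicate 2. On chromosome 17, Mir99b, Mirlet7e and Mir125a lie within 624 bases and were of like level, at 12120, 6574 and 6189 CPM in replicate 1. In replicate 2 they stood at 13259, 5344 and 2936 CPM, and Mir125a differed most of the 3 between the libraries. Mirlet7c-1 and Mirlet7a-2 each share a mature sequence with another hairpin, while Mirlet7e shares none. The split by shared sequence was chosen with earlier results of these data known, and these few clusters do not test it. Reads placed at several positions were taken to be outside the counts, and their part in the gaps to Mir99a and Mir100 was not tested. Mir125b-1 and Mir125b-2 lie in the same regions more than 10 kb from Mirlet7a-2 and Mirlet7c-1, at 513 ± 58.7 and 671 ± 26.8 CPM (SD, n = 2).

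**Figure D3:**
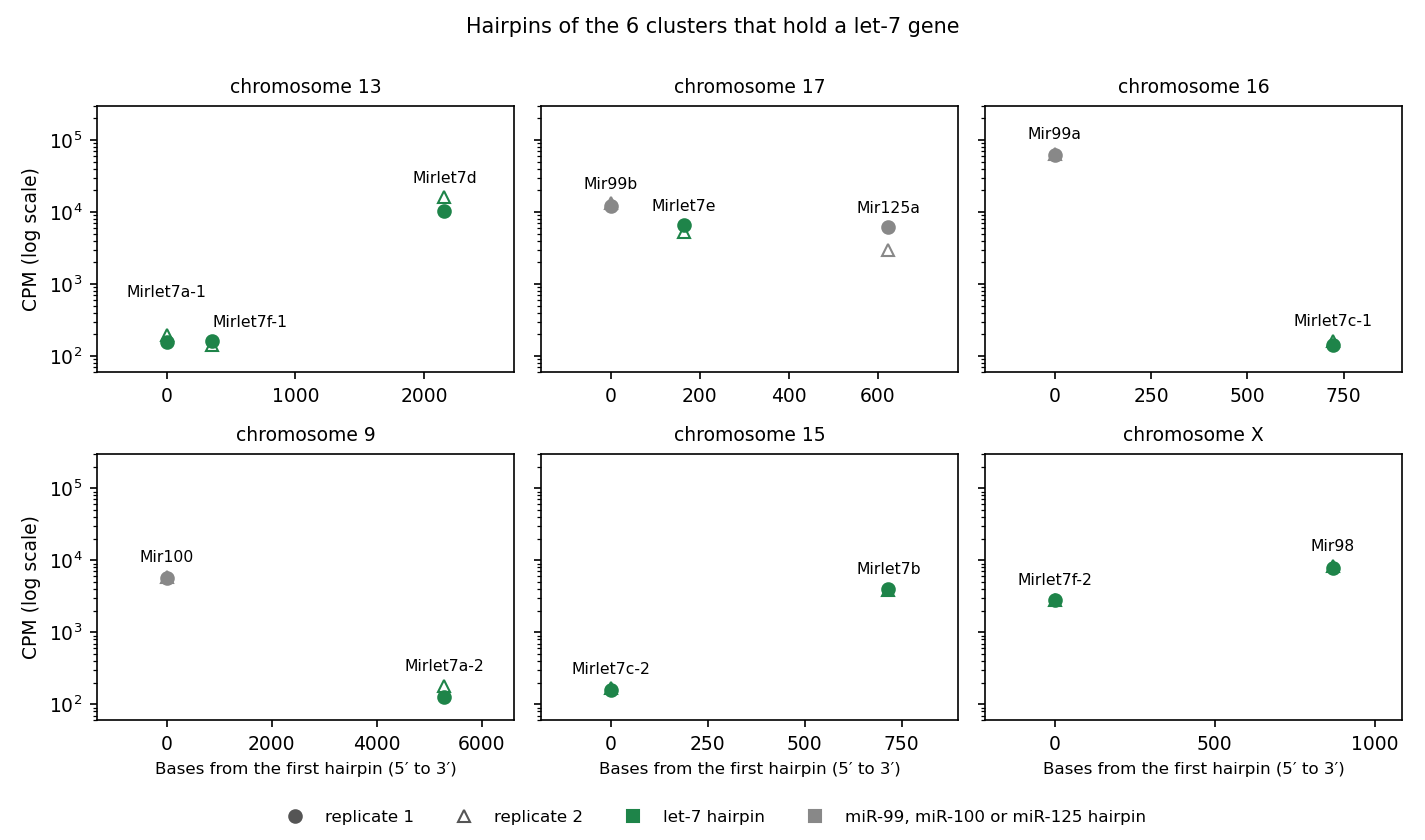
CPM (log scale) of the hairpins in the 6 clusters, against the distance in bases from the first hairpin in the direction of transcription, in replicate 1 (filled circles) and replicate 2 (open triangles). Green marks let-7 and grey the other miRNA genes. Mirlet7c-1 and Mirlet7a-2, which each share a mature sequence with another hairpin, lie far below Mir99a and Mir100. Mirlet7e, which shares none, lies near Mir99b and Mir125a. Whether shared sequence had a part in this was not tested.

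The libraries were then compared, with counts scaled by TMM factors (a trimmed mean of log ratios) and a ratio of replicate 1 over replicate 2. A gene was called where it differed at least 2-fold at an adjusted p under 0.05, in a two-sided exact binomial test with Benjamini-Hochberg adjustment over the 289 genes whose mean reached 10 CPM. With this rule 0 of the 10 let-7 genes were called, against 7.96% of all genes tested (7.27% higher and 0.692% lower in replicate 1). With no minimum fold, 10 of 10 let-7 genes passed and were lower in replicate 1; of all genes tested 76.1% passed, 37.7% lower and 38.4% higher in replicate 1. With DESeq2 size factors the 10 were also lower in replicate 1, where the median log2 ratio was 0.01 over all genes tested. The shares of all genes that passed are for TMM scaling only. The test holds counting error only and compares these libraries, not conditions, so at this depth small ratios pass. The median log2 ratio was -0.34 over the let-7 genes and 0.02 over all genes tested, and the median absolute log2 ratio was 0.34 over the let-7 genes and 0.24 over all genes tested. That order turned with total-read scaling, which gave 0.15 over the let-7 genes and 0.26 over all genes tested. Scaling by total assigned reads moved the median of all genes to 0.21 and turned Mirlet7b to higher in replicate 1, with the other 9 still lower. Of these, Mirlet7c-2 no longer passed the exact binomial test with that scaling (adjusted p 0.23). Each of the 10 genes lay below the median of all genes, a position that no scaling can change, since scaling shifts all genes alike. Mirlet7e and Mirlet7f-1 were not among the 10, and had log2 ratios of 0.12 and -0.02 with TMM scaling.

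Mirlet7d differed most, with 79878 reads in replicate 1 and 128327 in replicate 2. Its log2 ratio was -0.82 (95% interval -0.83 to -0.81), which puts replicate 1 at 0.566 times replicate 2. Mirlet7a-2, with 993 reads in replicate 1 and 1436 in replicate 2, had a log2 ratio of -0.67 (-0.79 to -0.55). Mirlet7g had a log2 ratio of -0.63 (-0.64 to -0.62). These were the 3 let-7 genes beyond 1.5-fold, all lower in replicate 1, a bound passed by 20.1% of all genes tested in either direction and by 4.84% in that one. With total-read scaling Mirlet7d alone stayed beyond it, at -0.64, with Mirlet7a-2 at -0.49 and Mirlet7g at -0.45. The smallest difference was that of Mirlet7b, with 31408 reads in replicate 1 and 30791 in replicate 2 and a log2 ratio of -0.11 (-0.13 to -0.09). The remaining 6 members lay between -0.21 for Mirlet7f-2 and -0.51 for Mirlet7a-1. With Mirlet7g and Mirlet7d taken out of both the family and the total, the family's share of sense-assigned reads was 6.57% in replicate 1 and 7.13% in replicate 2.

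**Figure D4:**
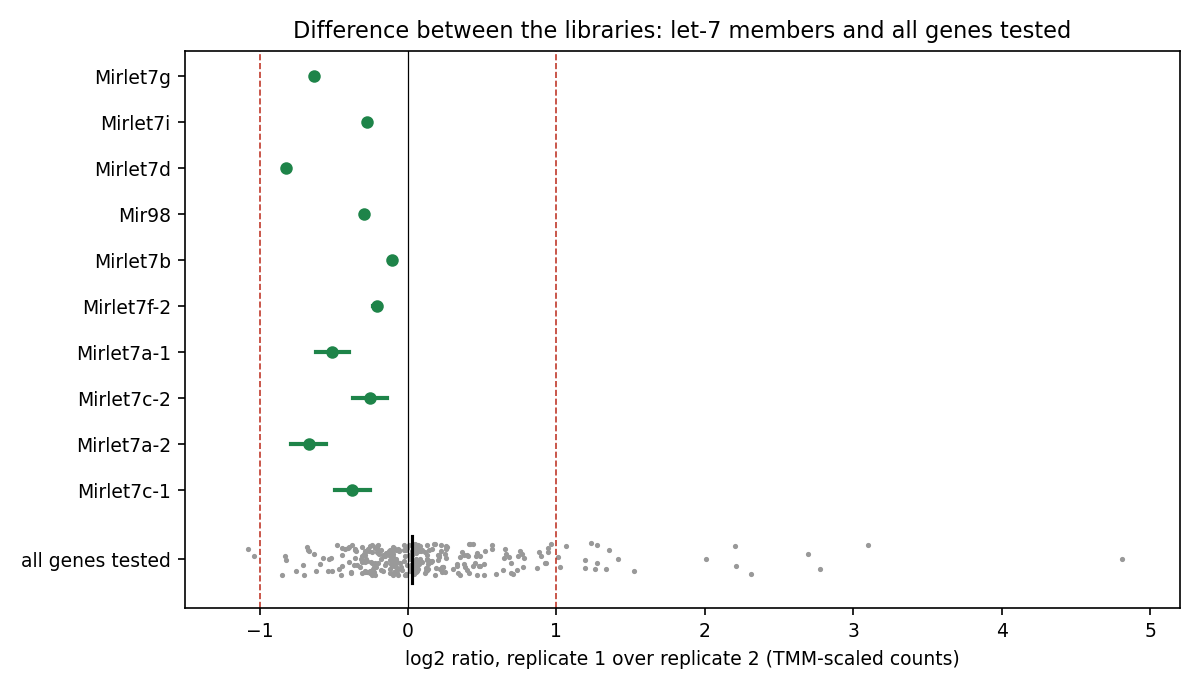
log2 ratio of replicate 1 over replicate 2 (TMM-scaled counts) for the 10 let-7 genes, with bars for the exact 95% interval, and for the 289 genes tested (grey points, black bar at their median). Red dashed lines mark 2-fold; the let-7 genes lie between -0.82 and -0.11, left of the median of all genes at 0.02.

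Neighbours in a cluster did not always move alike between the libraries. Mirlet7d stood at -0.82 and Mirlet7a-1 of the same cluster at -0.51 (95% interval -0.62 to -0.40). Mirlet7f-1, also of that cluster but read from the other strand of Gm24111, stood at -0.02 (-0.14 to 0.10). Mirlet7e had a log2 ratio of 0.12 (0.10 to 0.14), between its neighbours Mir99b at -0.31 (-0.32 to -0.30) and Mir125a at 0.89 (0.87 to 0.92), and these intervals did not overlap. Mir98 at -0.30 (-0.31 to -0.28) and Mirlet7f-2 at -0.21 (-0.24 to -0.19) were closer. Of the 6 miR-99, miR-100 and miR-125 genes, 4 were lower and 1 higher in replicate 1 at an adjusted p under 0.05 in the same exact binomial test with no minimum fold, and 0 were called at 2-fold. Of all genes tested 37.7% were lower and 38.4% higher by that test. The median of these genes was -0.16 against 0.02 over all genes tested.

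The tissue and the libraries were checked by marker genes. All 14 miRNA genes listed for smooth muscle, epithelium and endocrine cells of the stomach reached 10 CPM in both libraries, a level met by 277 of the 1973 genes. Some genes listed for other tissues, given below, reached it too. No read was counted for the 3 neuronal Mir124a genes, which are copies with the same mature sequence. Since reads placed at several positions were taken to be left out, this does not show that neurons were absent. Of 6 striated muscle genes, 5 were in the tables, with a sum of 3209 CPM in replicate 1 and 103 CPM in replicate 2. Mir133a-1 and Mir133a-2, also copies with the same mature sequence, were at 0. In that list only Mir206 reached 10 CPM in both libraries. The erythroid genes Mir451a and Mir144 had a summed level of 1224 CPM in replicate 1, against 577 CPM in replicate 2. Mir122, a liver gene, had 1821 CPM in replicate 1 and 1210 CPM in replicate 2. Of the stomach lists, summed CPM was lower in replicate 1 for stratified epithelium (Mir203 and Mir205), endocrine cells and epithelium. These stood at 28558, 10291 and 50884 CPM in replicate 1, and at 38234, 11958.5 and 51088.5 CPM in replicate 2. Smooth muscle and gut epithelium were higher in replicate 1, at 202084 and 4171 CPM against 197398 and 3774 CPM. These sums are without TMM scaling. The TMM factors, 1.065 in replicate 1 and 0.939 in replicate 2, lower replicate 1 by more than the gap in smooth muscle or gut epithelium. With TMM scaling both of these lists would thus be lower in replicate 1 too. The part of any of these in the lower let-7 values of replicate 1 was not tested.

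Outside the family, mature sequences with the let-7 seed were found for 2 genes, Mir7k and Mir1961.
let-7k: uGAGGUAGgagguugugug
miR-1961: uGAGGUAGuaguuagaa
Neither gene had a read in either library. A count of 0 lies below the floor of 3 counts, which equals 0.388 CPM in replicate 1 and 0.376 CPM in replicate 2. Counted reads with this seed therefore came from the let-7 hairpins and Mir98 alone, as far as reads were assigned to genes.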

How the data were processed

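RNA shorter than 30 nucleotides, according to the size label, was sequenced from both pools. Per the file headers, the authors aligned reads to mm10 and counted them over GENCODE M4 genes. For the aligner and counter, names and versions were not given in the sources used here. The deposited values are raw read counts per hairpin gene, in 1 column for either strand and 1 column for each strand. Totals that name no gene (in replicates 1 and 2, 25.1% and 25.2% at several positions, 21.3% and 20.3% unmapped, 2.81% and 3.11% outside genes) stayed out of library sizes and tests. Sense-assigned reads numbered 7734578 in replicate 1 and 7983714 in replicate 2, so 3 counts equal 0.388 and 0.376 CPM. Intervals cover counting error only.

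Symbols and positions came from GENCODE M21 (GRCm38), which matched 1894 of 1973 identifiers, and sequences from RefSeq (GRCm38.p6). No genome sequence was used, so copies were sought among RefSeq hairpins only. TMM factors came from edgeR 4.0.16 in R 4.3.3 over genes whose mean reached 10 CPM, with 0.5 added to counts for ratios; DESeq2 1.42.0 gave alternative size factors. Other steps used Python 3.11.15, scipy 1.17.1 and matplotlib 3.10.9. Genes named were the members, hairpins within 10 kb, genes with the let-7 seed, miR-99, miR-100 and miR-125 genes, neighbours in rank, the 3 genes most like Mirlet7g, and markers; Mir7j was added after its values were seen. The members, lists and split by shared sequence were chosen with earlier results of these data known.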

Additional observations from a re-analysis of the deposited data

Results flagged for a closer look

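Reads on the strand opposite to a let-7 gene are not part of the profile. Mirlet7b had 15 such reads in replicate 1 and 30 in replicate 2, above the floor of 3 counts in both libraries. They equal 0.0478% and 0.0974% of its sense reads in replicates 1 and 2. Mir98 had 1 and 3, and the other 8 members had none.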

How the results depend on the processing

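The family share ran from 11.7% to 14.3% with either library left out. It was 16.2% with Mir143 taken out of the denominator and 6.45% of all reads, unmapped ones included, since both change what the share is of. With strand ignored, Mirlet7e and Mirlet7f-1 added, or Mir98 or the numbered copies removed, it stayed within 1 SD of 12.99%. Ignoring strand moved Mirlet7f-2 to 2739 CPM, beyond its small SD, and 29 of 30 alternative levels stayed within theirs, leaving out a library not counted, since with 2 libraries that always stays within the SD. Without replicate 2, 4 of the 10 members held their place in the order of means, and without replicate 1, 8 did; overlap of ranges cannot be given from a single library. With TMM scaling, 0 let-7 genes differed at 2-fold, 3 at 1.5-fold and 10 with no minimum fold. Of all genes tested, 7.96%, 20.1% and 76.1% did. At 2-fold the number stayed 0 under each other scaling and filter, for which the share of all genes is not given here. With total-read scaling Mirlet7d alone stayed beyond 1.5-fold. The median absolute log2 ratio was 0.15 with total-read scaling and 0.35 with DESeq2 size factors, against 0.34. Total-read scaling turned the log2 ratio of Mirlet7b to 0.074. The other 49 of 50 alternative ratios kept direction and side of the 2-fold threshold. Those that only changed the value added to counts, to 1 or 5, could not do otherwise at these read numbers. No paired analysis was possible because there is 1 group. An SD from 2 libraries is itself imprecise.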

Other observations

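A hairpin named let-7j, counted as Mir7j at chr3:140028249-140028370, lies outside the family as defined by symbol and seed. Its mature sequence is that of let-7i-5p with the single difference G8U over the 22 bases of let-7i-5p, counted from the 5′ end, and it runs on to 24 bases. Capitals mark the base that differs, which is the last of the seed.
let-7i-5p: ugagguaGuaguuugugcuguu
let-7j: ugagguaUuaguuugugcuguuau
Mir7j had 841 reads in replicate 1 and 834 in replicate 2, which is 0.232% and 0.209% of the reads of Mirlet7i. Its level was 107 ± 3.02 CPM (SD, n = 2), and its log2 ratio between the libraries was -0.12 (95% interval -0.26 to 0.02). Mir202, whose 3p sequence starts much like let-7d-5p, had 6 reads in each library.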
